A study of Mus musculus with 12 samples.

Results

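The glutathione transferases of the alpha, pi, kappa, theta, zeta and omega classes were examined in the livers of mice that had swallowed silver nanoparticles. They were Gsta2, Gsta3 and Gsta4 (alpha), Gstp1 and Gstp2 (pi), Gstk1 (kappa), Gstt1 and Gstt2 (theta), Gstz1 (zeta) and Gsto1 (omega), 10 genes in all. A gene had a value where a probe set of the array named that gene and no other, and the probe set of highest mean over the 12 arrays stood for it. This gave 9 genes a value, and all 9 passed the filter on low signals and were among the 19985 genes tested. The probe set for Gstp2 also named the pseudogene Gstp-ps, so Gstp2 was not analysed here.

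RNA from 1 liver per mouse was hybridised to 1 array, in 3 groups of 4 mice. Particles of 20 nm with a coat of polyvinylpyrrolidone (PVP), particles of 20 nm with a coat of citrate, or water for the controls were gavaged daily for 7 days, at 4 mg of silver per kg with either particle, and livers were taken 24 h after the final gavage. All mice were 3 months old and had the background C57BL/6J -Oca2p-un/J, so that the controls carry the same Oca2 allele. Each group held 2 females and 2 males: replicates 1 and 2 of both particle groups were female and replicates 3 and 4 male, while control replicates 2 and 4 were female and replicates 1 and 3 male.

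Glutathione transferases join the tripeptide glutathione to reactive electrophiles, which makes them more soluble and ready for export into bile or blood. The liver holds them in large amounts as part of drug and aldehyde clearance, and their classes differ in where they sit and what they accept. Alpha enzymes of the cytosol take up hydroperoxides and lipid aldehydes, kappa is found in mitochondria and peroxisomes, theta handles small halogenated compounds, zeta also works as maleylacetoacetate isomerase in tyrosine breakdown, and omega acts as a thiol transferase and dehydroascorbate reductase. Many of these genes are induced through NRF2, a transcription factor that binds antioxidant response elements.

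Promoter sequences show what these genes carry just upstream of transcription. RefSeq promoters on GRCm38.p6, each of 300 bases around a start site, were at hand for 8 of the 10 genes, 9 promoters in all. Of these, 4 are printed: that of Gstk1, the gene that passed the test for PVP, that of Gsta2, which had the most negative PVP difference, that of Gsta3, the one with a match to the core of the antioxidant response element, and that of Gstp1, which separated the sexes. Capitals mark matches to 4 patterns, searched on both strands, of which none overlapped another: the core of the antioxidant response element was spelled TGACNNNGC, the STAT5 site TTCNNNGAA and the AP-1 site TGANTCA, and the core promoter box was spelled TATAAA. The AP-1 letters were added after the promoters had been read.
Gstk1: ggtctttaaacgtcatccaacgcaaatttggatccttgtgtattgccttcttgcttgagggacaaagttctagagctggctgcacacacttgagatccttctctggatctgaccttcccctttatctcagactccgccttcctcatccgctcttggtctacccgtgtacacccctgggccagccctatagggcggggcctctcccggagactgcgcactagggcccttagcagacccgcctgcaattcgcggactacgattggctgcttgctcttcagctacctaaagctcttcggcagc
Gsta2: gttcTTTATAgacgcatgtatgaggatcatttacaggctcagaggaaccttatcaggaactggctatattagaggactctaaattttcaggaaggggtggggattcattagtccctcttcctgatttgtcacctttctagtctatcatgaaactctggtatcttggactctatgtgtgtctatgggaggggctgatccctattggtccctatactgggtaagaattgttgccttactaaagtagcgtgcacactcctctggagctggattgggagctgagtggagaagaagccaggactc
Gsta3: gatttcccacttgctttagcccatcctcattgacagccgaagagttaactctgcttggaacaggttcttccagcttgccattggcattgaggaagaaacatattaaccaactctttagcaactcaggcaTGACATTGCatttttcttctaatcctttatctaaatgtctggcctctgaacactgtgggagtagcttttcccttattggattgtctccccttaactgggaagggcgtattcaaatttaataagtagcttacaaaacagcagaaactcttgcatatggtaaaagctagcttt
Gstp1: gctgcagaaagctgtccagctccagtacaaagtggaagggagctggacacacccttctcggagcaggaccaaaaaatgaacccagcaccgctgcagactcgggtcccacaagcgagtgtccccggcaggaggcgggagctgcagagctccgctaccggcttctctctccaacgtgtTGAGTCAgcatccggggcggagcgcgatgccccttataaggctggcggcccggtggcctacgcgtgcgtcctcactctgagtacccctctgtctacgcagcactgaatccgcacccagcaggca

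The Gstk1 promoter covers chr6:42245685-42245984 on the plus strand and held none of the 4 patterns. That of Gsta2 (chr9:78347096-78347395, minus strand) held TTTATA, the core promoter box on the other strand, 246 bases before the start. Gsta3 (chr1:21240335-21240634, plus strand) held TGACATTGC 121 bases before the start, letters whose pattern occurs in 12.4% of 32851 promoters of this length. Gstp1 (chr19:4037863-4038162, minus strand) held TGAGTCA 74 bases before the start, and Gstp2, not printed, held the same letters 89 bases before its own; the pattern occurs in 7.81% of promoters. The core promoter box occurs in 13.6% of promoters and the STAT5 letters, found in none of these 9, in 8.3%. A match is only a run of letters in this window, and other spellings of these elements were not searched.

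Signals are on the deposited log2 scale, and each probe set is compared only with itself, since brightness differs between probe sets. The ceiling of the table is 19.93. Gstp1 came closest to it, with a highest value of 19.92, and it lay within 0.5 of the ceiling on 4 arrays. Gstt2 and Gsto1 lay at the dim end: they exceeded the 95th percentile of the intron control probe sets, which should carry little signal, on 5 and 7 of the 12 arrays. Gsta2 did so on 11 arrays and the other 6 genes on all 12. Gsta2 and Gstp1 have near-identical neighbours (Gsta1, and Gstp2 with Gstp-ps) whose RNA may bind the same probes, so their values are uncertain in that respect.

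The first question was whether PVP-coated particles changed these transferases relative to water. All 9 measured genes had lower means in PVP-treated livers than in control livers, and Gstk1 fell. With limma's moderated test, adjusted by Benjamini and Hochberg over the 19985 genes, Gstk1 was the 1 of 9 that passed at 0.05, and 0 rose. Over all genes 0.025% were called lower and 0.015% higher, 8 genes in all, a count that ran from 1 to 61 when 1 array was left out (61 without PVP replicate 3) and from 0 to 85 over the other alternatives. At an unadjusted p under 0.05 there were 6 of 9 lower (Gstk1, Gsta2, Gsta4, Gstt1, Gstt2 and Gstz1), against 12.2% of all genes. In 5 of the 9 (Gsta2, Gsta4, Gstk1, Gstt1 and Gstz1) every PVP-treated liver lay below every control liver, against 4.92% of all genes. The median difference over the 9 was -0.62, against -0.0023 over all genes tested, of which 50.5% had a difference below 0.

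Gstk1, the kappa transferase of mitochondria and peroxisomes, had log2 signals of 13.91, 13.67, 13.85 and 13.38 in PVP-treated livers, 14.33, 14.53, 14.20 and 14.14 in citrate-treated livers, and 14.46, 14.59, 14.69 and 14.94 in control livers (replicates 1 to 4 of each). The 4 PVP-treated livers were the 4 lowest of the 12, and they overlapped neither the citrate-treated nor the control livers. The fall with PVP was 0.97 on the log2 scale, 1.95-fold (SE 0.13, 95% interval -1.26 to -0.68, limma adjusted p = 0.046). In bulk liver, fewer cells of a type and less RNA per cell cannot be told apart. The difference was of like size in both sexes, -0.97 in females and -0.96 in males, from 2 mice per mean. The call lay near the threshold and was lost when most single arrays were left out. Its limma adjusted p was 0.0401 without control replicate 2 and 0.0254 without PVP replicate 3. It was 0.0663 to 0.134 without any other single array (control replicates 1, 3 and 4, citrate replicates 1 to 4, PVP replicates 1, 2 and 4). Without PVP replicates 1 and 4, the 2 arrays that separated exon from intron control probe sets least, the difference was -0.91 and the adjusted p 0.249.

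Gsta2 encodes an alpha class transferase that reduces hydroperoxides. Its log2 signals were 10.30, 7.46, 10.63 and 10.46 in PVP-treated livers, 10.05, 9.97, 11.29 and 11.11 in citrate-treated livers, and 11.06, 11.9999, 12.23 and 11.74 in control livers. PVP replicate 2 was far below the other 11 arrays, and the PVP-treated livers did not overlap the control livers. The difference between PVP and control was -2.04, a 4.13-fold lower level (SE 0.58, 95% interval -3.32 to -0.77), and it did not pass (limma adjusted p = 0.138). Without PVP replicate 2 it was -1.36 (adjusted p = 0.115).

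Gsta4 encodes the alpha transferase that conjugates 4-hydroxynonenal, an aldehyde of lipid peroxidation. Its log2 signals were 10.87, 9.81, 11.77 and 11.58 in PVP-treated livers, 11.52, 11.62, 11.9998 and 11.80 in citrate-treated livers, and 11.91, 12.22, 12.45 and 11.997 in control livers. Both PVP-treated females lay below all other arrays, and the PVP-treated males lay just below the lowest control. The difference was -1.14, or 2.20-fold lower (SE 0.29, limma adjusted p = 0.119).

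Gsta3, the alpha transferase best known in mice for clearing the epoxide of aflatoxin B1, had log2 signals of 13.82, 14.48, 15.33 and 14.83 in PVP-treated livers, 14.92, 14.87, 14.87 and 14.83 in citrate-treated livers, and 15.40, 14.86, 15.12 and 14.87 in control livers. The PVP-treated females were the 2 lowest arrays, while PVP replicate 3 was the second highest, so the groups overlapped. The difference was -0.45 (SE 0.21, limma adjusted p = 0.268). It was -0.23 without PVP replicate 1 and -0.16 without PVP replicates 1 and 4.

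Gstt1 encodes a theta transferase that acts on small halogenated compounds. Its log2 signals were 10.17, 11.37, 11.38 and 10.10 in PVP-treated livers, 12.74, 13.17, 10.75 and 11.08 in citrate-treated livers, and 11.82, 11.73, 11.74 and 13.12 in control livers. All PVP-treated livers lay below all controls, and the citrate-treated livers split by sex, with both females above and both males below the lowest control. The PVP difference was -1.35, or 2.55-fold lower (SE 0.49, limma adjusted p = 0.185). It was -0.73 without PVP replicates 1 and 4.

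Gstt2, the other theta gene measured, had log2 signals of 7.95, 7.70, 8.77 and 7.95 in PVP-treated livers, 7.99, 8.32, 8.10 and 8.06 in citrate-treated livers, and 8.54, 8.38, 8.86 and 9.07 in control livers. PVP replicate 3 lay within the control range and the other PVP-treated livers below it. The difference was -0.62 (SE 0.22, limma adjusted p = 0.185).

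Gstz1, the maleylacetoacetate isomerase of tyrosine breakdown, had log2 signals of 14.52, 14.97, 14.99 and 14.45 in PVP-treated livers, 15.23, 15.39, 14.98 and 15.06 in citrate-treated livers, and 15.20, 15.06, 15.17 and 15.49 in control livers. The PVP-treated livers lay below all controls, 2 of them by a small margin. The difference was -0.50, or 1.41-fold lower (SE 0.15, limma adjusted p = 0.152), and -0.25 without PVP replicates 1 and 4.

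Gsto1, the omega class enzyme, had log2 signals of 7.96, 8.24, 8.37 and 8.04 in PVP-treated livers, 8.01, 8.67, 8.14 and 8.13 in citrate-treated livers, and 8.12, 8.59, 8.29 and 8.63 in control livers. The groups overlapped throughout, and the PVP difference was -0.25 (SE 0.16, limma adjusted p = 0.388). Its 95% interval, -0.62 to 0.11, spans 0.

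**Figure D1:**
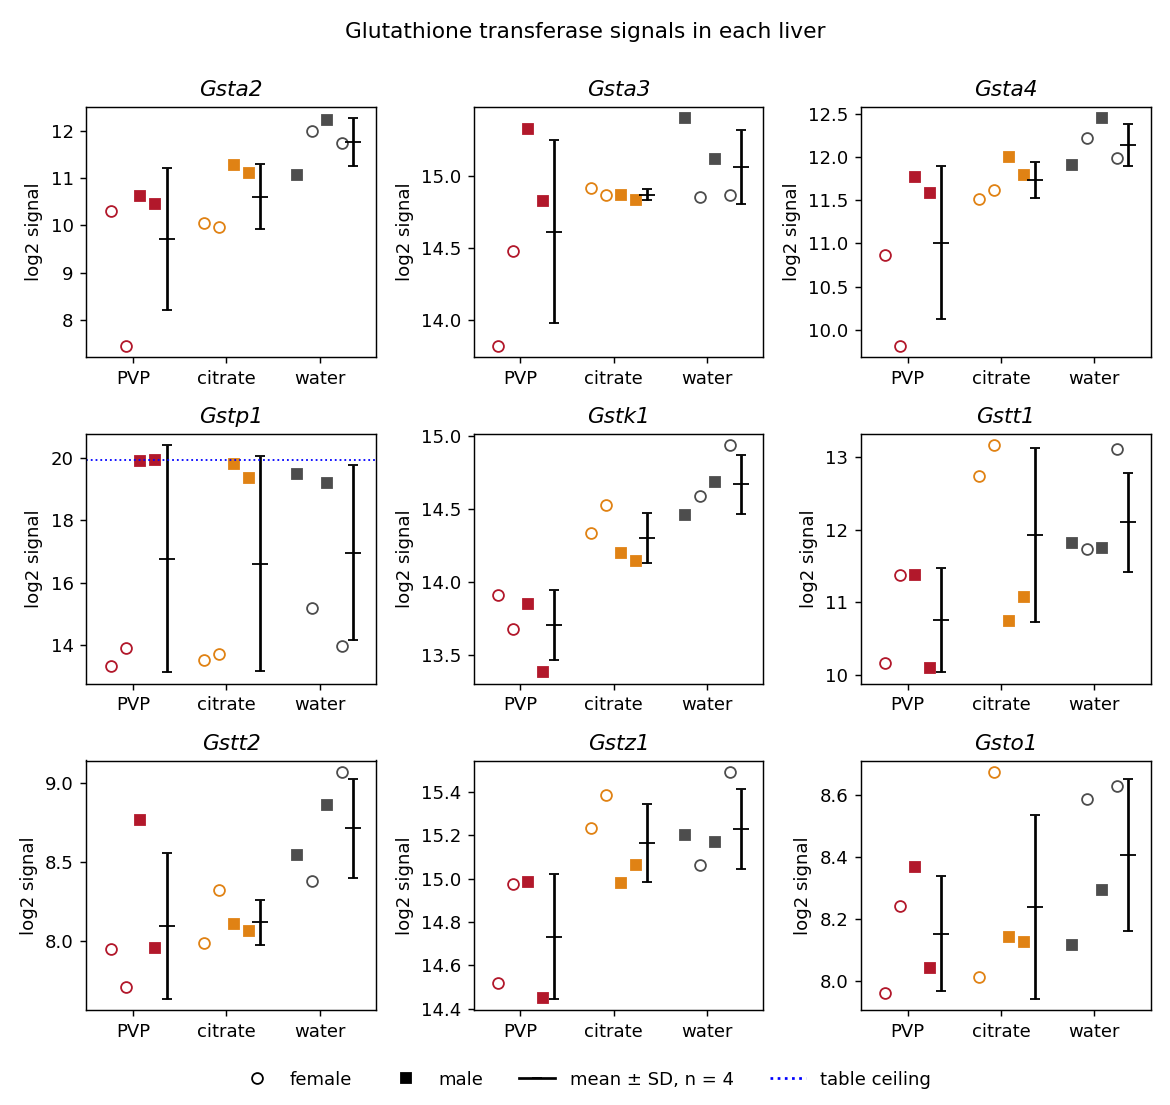
Log2 signal of the 9 measured transferases on each of the 12 arrays, 1 panel per gene, with PVP-treated, citrate-treated and water-treated (control) livers from left to right. Open circles are females, filled squares are males, and the black mark with its bar is the mean ± SD of 4 mice. The dotted line in the Gstp1 panel is the ceiling of the table at 19.93. The PVP-treated livers lay below all controls for Gsta2, Gsta4, Gstk1, Gstt1 and Gstz1, and Gstp1 divided the mice by sex.

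Gstp1, the pi class transferase, was dominated by sex. PVP-treated females had log2 signals of 13.32 and 13.91 and PVP-treated males 19.91 and 19.92. The signals were 13.52 and 13.72 in the citrate-treated females and 19.81 and 19.35 in the citrate-treated males, and 15.19 and 13.96 in the control females and 19.49 and 19.21 in the control males. The 6 females averaged 13.94 ± 0.66 and the 6 males 19.61 ± 0.31 (log2, mean ± SD, n = 6 each), with no overlap, as for 1.38% of all genes lower in females. Gstp1 was 51.1-fold lower in females than in males (log2 difference -5.68, SE 0.28, limma adjusted p = 1.94e-06), and since the males were near the ceiling the size of this difference could be understated. It was the 1 of 9 that passed the adjusted threshold for sex. Over all genes 1.25% were called lower in females and 0.931% higher.

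Among the other transferases, 2 were lower in females and 1 higher at an unadjusted p under 0.05, and none passed the adjusted threshold. Gsta4 had a female minus male difference of -0.58 (limma adjusted p = 0.286) and Gsta3 of -0.43 (adjusted p = 0.276), while Gstt1 had +0.91 (adjusted p = 0.311). These differences cover all 3 groups, treated mice included, and were not alike in each (2 mice per mean). Gsta4 averaged 12.11 in control females and 12.18 in control males, 11.57 and 11.90 with citrate, and 10.34 and 11.68 with PVP. For Gstt1 these means were 12.42 and 11.78 in controls, 12.95 and 10.91 with citrate, and 10.77 and 10.74 with PVP. For Gsta3 they were 14.86 and 15.26, 14.89 and 14.85, and 14.15 and 15.08. Over all genes 8.93% were lower and 6.36% higher at that unadjusted threshold. The count of 4 transferases at an unadjusted p under 0.05, Gstp1 included, was 1 when PVP replicate 4 was left out and 2 when control replicate 3 or 4 or citrate replicate 1 or 3 was.

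Against control, Gstp1 differed by -0.20 with PVP (SE 0.34, limma adjusted p = 0.756) and by -0.36 with citrate (SE 0.34, adjusted p = 0.986). The sexes had opposite signs. PVP minus control was -0.96 in females and +0.56 in males, and citrate minus control was -0.96 in females and +0.23 in males, from 2 mice per mean. The control females themselves lay far apart, at 15.19 and 13.96, and without control replicate 2 the differences were 0.20 for PVP and 0.038 for citrate. The difference between the sexes was tested in a model of 6 means, 1 for each group and sex. At an unadjusted p under 0.05, 2 of 9 genes (Gsta4 and Gstp1) had a lower PVP effect in females, against 1.91% of all genes. For Gstp1 and PVP the difference was -1.53 (95% interval -2.72 to -0.33, unadjusted p = 0.0184 and adjusted p = 1 in limma), and for citrate -1.19 (95% interval -2.39 to 0.0065, unadjusted p = 0.051 and adjusted p = 1 in limma).

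Citrate-coated particles were compared with water in the same fit, with the same 4 controls. All 9 measured transferases had a difference below 0, against 49.6% of all genes, with a median of -0.36 against 0.00043 over all genes. None of the 9 passed the threshold over all genes with limma, against 0.005% of genes called lower. At an unadjusted p under 0.05 there were 2 of 9, Gstk1 and Gstt2, both lower, against 3.82% of all genes. That count was 0 without control replicate 3 or 4, 1 without citrate replicate 1, 3 or 4, and 4 without PVP replicate 2.

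Gstk1 had a citrate difference of -0.37 (SE 0.13, 95% interval -0.66 to -0.08, limma adjusted p = 0.58), and citrate replicate 2 lay within the control range. For Gstt2 it was -0.60 (SE 0.22, 95% interval -1.09 to -0.10, limma adjusted p = 0.622). Its 4 citrate-treated livers all lay below the lowest control, the 1 gene of 9 without overlap, against 2.37% of all genes. Gsta2 had a citrate difference of -1.15 (limma adjusted p = 0.822), and its citrate-treated females, at 10.05 and 9.97, were below the controls while the males, at 11.29 and 11.11, were inside their range. Gsta4 and Gsta3 had citrate differences of -0.41 and -0.19 and Gstt1, Gstz1 and Gsto1 of -0.17, -0.06 and -0.17, with limma adjusted p-values of 0.937 to 1. For Gstt1 the sign of the citrate difference was not stable: it was 0.04 without control replicate 4 and 0.10 without citrate replicate 3. That of Gstz1 was 0.0080 without control replicate 4.

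The 2 coatings were given at the same dose, size and times, so that PVP can be set against citrate directly. PVP carries a neutral polymer coat and citrate a small charged one. Of the 9 genes 0 passed for PVP minus citrate with limma, and over all genes 0% were called in either direction. The difference was below 0 for 8 of 9, against 50.2% of all genes. At an unadjusted p under 0.05, 4 of 9 were lower with PVP (Gsta4, Gstk1, Gstt1 and Gstz1), against 8.72% of all genes. That count was 1 without citrate replicate 2, and 2 without citrate replicate 1 or PVP replicate 2 or 4.

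Gstk1 had a PVP minus citrate difference of -0.60 on the log2 scale (SE 0.13, 95% interval -0.89 to -0.31, limma adjusted p = 0.22). Its 4 PVP-treated livers all lay below its 4 citrate-treated livers, which was the case for 1 of the 9 genes and for 4.84% of all genes. Gstz1 had a PVP minus citrate difference of -0.43 (95% interval -0.77 to -0.10), Gsta4 of -0.73 (95% interval -1.38 to -0.07) and Gstt1 of -1.18 (95% interval -2.26 to -0.10), with limma adjusted p-values of 0.309, 0.342 and 0.344. Left-out arrays moved these values: that of Gsta4 was -0.39 without PVP replicate 2, and without PVP replicates 1 and 4 that of Gstz1 was -0.19 and that of Gstt1 -0.56. For Gsta2 the difference was -0.89, with an interval from -2.17 to 0.38, and -0.21 without PVP replicate 2, while for Gstp1 it was 0.16, with an interval from -0.60 to 0.92. Gsta3 and Gsto1 had -0.26 and -0.09, with intervals of -0.73 to 0.22 and -0.45 to 0.28, and without PVP replicate 1 they had -0.04 and 0.018. Gstt2 had -0.02, with an interval from -0.52 to 0.47, and its sign turned to 0.014 under quantile normalization. Where an interval spans 0, neither a difference nor its absence is shown.

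**Figure D2:**
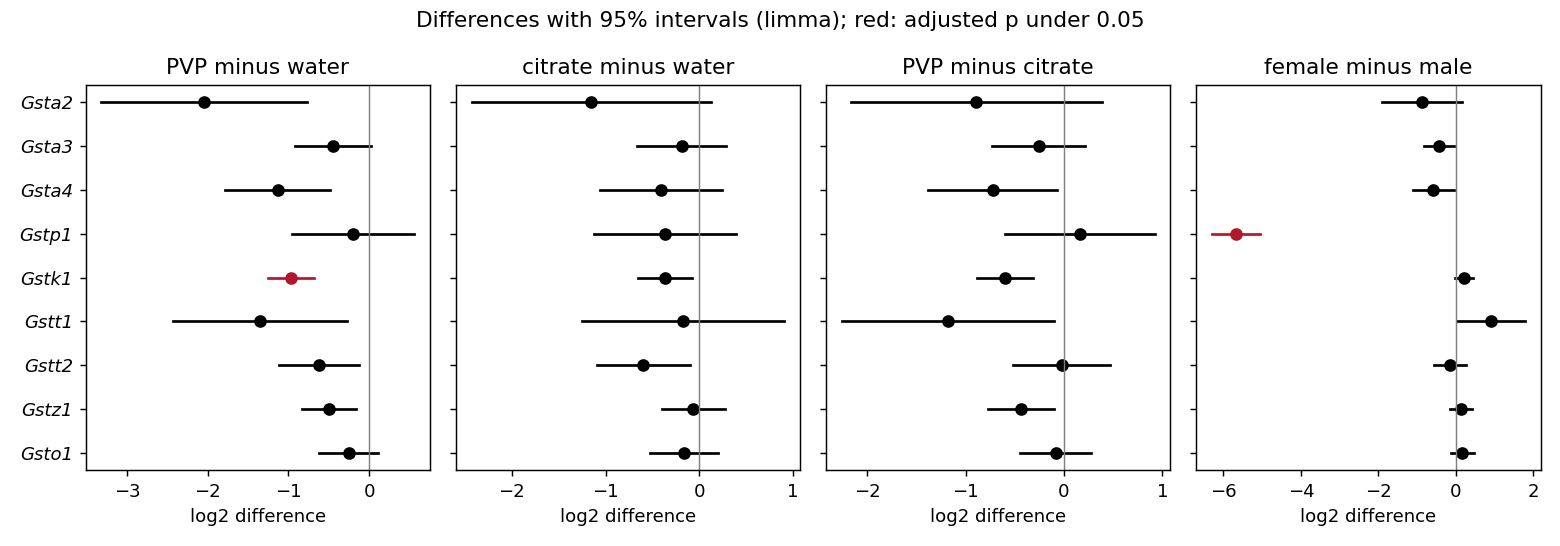
Log2 differences of the 9 measured transferases with their 95% intervals from limma, 1 panel per comparison (PVP minus water, citrate minus water, PVP minus citrate, female minus male). Red marks an adjusted p under 0.05, which was reached by Gstk1 for PVP minus water at -0.97 and by Gstp1 for female minus male at -5.68.

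Arrays of the same group differed among themselves, for reasons that were not tested. Each exposed mouse was therefore set against the mean of the 2 controls of its own sex. The median deviation of the 9 genes was -1.04 and -1.02 in PVP replicates 1 and 2, the females. Among PVP-treated males it was -0.20 in replicate 3 and -0.74 in replicate 4. In citrate replicates 1 to 4 the medians were -0.59, -0.24, -0.36 and -0.43. The same medians over all genes were not computed. PVP replicate 1 also had the highest median signal over the probe sets that are no controls, 4.37, against 4.07 to 4.23 on the other arrays. On this measure the lowest of the 12 arrays was PVP replicate 1 for Gsta3, Gstp1, Gstt1, Gstz1 and Gsto1, replicate 2 for Gsta2, Gsta4 and Gstt2, and replicate 4 for Gstk1. How often a PVP array was lowest over all genes was not computed. In raw signal, not set against controls of like sex, Gstt1 and Gstz1 were lowest in replicate 4.

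The differences between PVP and control were larger in females for Gsta2 (-2.99 in females, -1.10 in males) and Gsta4 (-1.77 in females, -0.50 in males), and nearly equal for Gstz1 (-0.53 in females, -0.47 in males). Tested as a difference between the sexes, that of Gsta4 was -1.27 (95% interval -2.34 to -0.19, limma unadjusted p = 0.0258, adjusted p = 1) and that of Gsta2 -1.89 (95% interval -4.38 to 0.60, adjusted p = 1). For Gstt1, citrate minus control was +0.53 in females and -0.87 in males, a difference of 1.40 between the sexes (95% interval -0.47 to 3.27, limma adjusted p = 1).

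**Figure D3:**
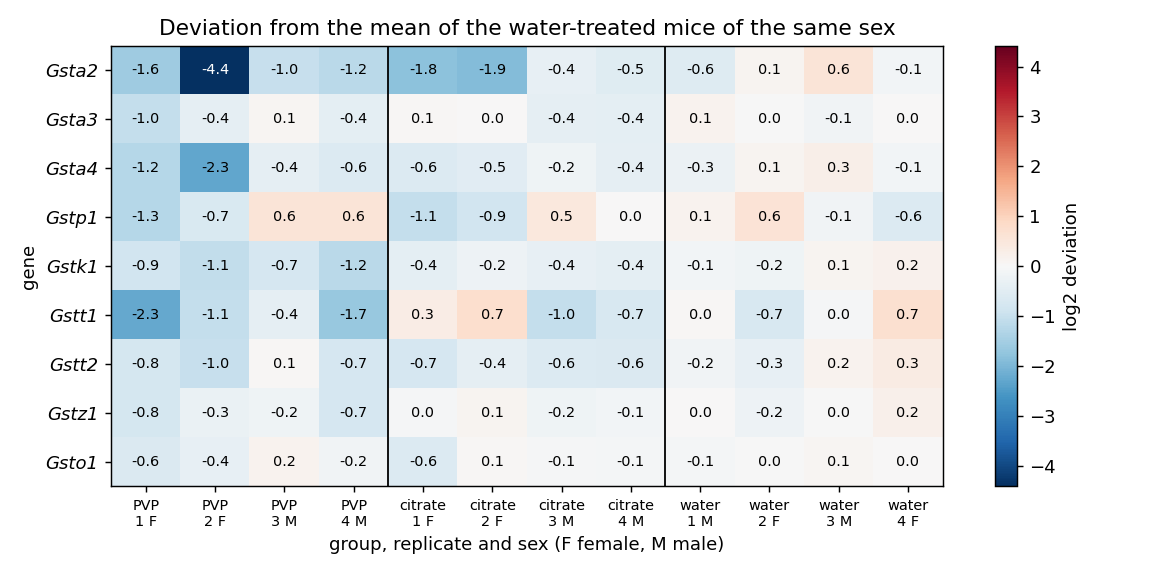
Deviation of each array, in log2 units, from the mean of the controls of like sex for the 9 measured transferases (down) and the 12 arrays (across; PVP, citrate, water). Blue is below and red above that mean. The medians over the 9 genes were -1.04 and -1.02 in PVP replicates 1 and 2, and -0.20 in PVP replicate 3.

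Several other measures were set beside the transferase deviations, and they were not all extreme in the same mice. The 16 acute phase genes, liver products of inflammation, had median deviations, computed in the same way, of 1.20, 1.52, 0.16 and 0.38 in PVP replicates 1 to 4, 0.87 in citrate replicate 1 and at most 0.14 in the other citrate-treated mice. The log2 of their summed signal was 22.32 to 23.20 in PVP-treated livers and 22.23 to 22.33 in control livers (exact permutation test, two-sided p = 0.0571). Of their PVP minus control differences 0 of 16 were below 0, against 50.5% of all genes. The median of these 16 differences was 0.89. The log2 summed signal of the Kupffer cell list (6 of 6 tested) was 11.88 to 14.46 in PVP-treated livers and 11.47 to 12.53 in control livers (exact permutation test, two-sided p = 0.143). It was highest in PVP replicate 2 and next highest in citrate replicate 1, at 13.24, both females. The summed signals and permutation tests given here take no account of sex. The median female minus male difference was 0.83 for the Kupffer cell list, 0.75 for the neutrophil list and 0.69 for the acute phase genes. With PVP 0 of the 6 Kupffer cell differences were below 0, against 50.5% of all genes, and the median was 0.51. The log2 summed signal of the neutrophil list (5 of 6 tested) was 9.31 to 12.63 in PVP-treated livers and 7.44 to 9.94 in control livers (exact permutation test, two-sided p = 0.143). It was highest in PVP replicate 2. With PVP 0 of 5 differences were below 0, against 50.5% of all genes, and the median was 0.39. For the stellate cell list (6 of 6 tested) the log2 summed signal was 11.69 to 12.93 in PVP-treated livers and 12.36 to 13.21 in control livers (exact permutation test, two-sided p = 0.2). It was lowest in PVP replicate 3, whose median transferase deviation was -0.20. All 6 differences were below 0, against 50.5% of all genes, with a median of -0.35. At an unadjusted p under 0.05, 2 of 6 were lower, against 12.2% of all genes. For the sinusoidal endothelial list (6 of 6 tested) the log2 summed signal was 10.69 to 11.50 in PVP-treated livers and 11.12 to 11.39 in control livers (exact permutation test, two-sided p = 0.286). It was lowest in PVP replicate 1. Here 4 of 6 differences were below 0, against 50.5% of all genes, with a median of -0.29. At an unadjusted p under 0.05, 2 of 6 were lower, against 12.2% of all genes. The area by which exon exceeded intron control probe sets was 0.778 to 0.821 on PVP arrays and 0.804 to 0.842 on control arrays (exact permutation test, two-sided p = 0.171). The part of these measures in the transferase values was not tested. The hepatocyte markers Alb, Ttr and Trf were at the ceiling on every array, where a change can be hidden. With PVP, citrate and water, Apoa1 averaged 19.92 in each and Cps1 19.88, 19.93 and 19.93, also at or near the ceiling. Hnf4a, well below the ceiling, averaged 11.51, 11.80 and 11.64 in that order. The log2 summed signal of the hepatocyte list was 22.21 in PVP replicate 2 and 22.25 on the other arrays.

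Related gene lists place the transferases among their neighbours. Of 19 other cytosolic and membrane transferases 14 were tested, and for PVP minus control none passed, 9 were lower at an unadjusted p under 0.05 (12.2% of all genes) and 0 higher, with a median of -0.71. The mu class genes of chromosome 3 had the smallest p-values: Gstm6 had -0.89, Gstm4 -0.84 and Gstm3 -1.58, with limma adjusted p-values of 0.0566, 0.0577 and 0.0629. These genes are close paralogs whose probes may share RNA. For citrate minus control the 14 had a median of -0.14 and 0 were past the unadjusted threshold.

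Genes of glutathione synthesis, export and recycling (23 of 27 tested) had a PVP median of -0.29, with 0 past the threshold over all genes, 5 lower and 0 higher at an unadjusted p under 0.05, where 12.2% of all genes were lower. They include Lap3, a leucine aminopeptidase, at -0.77 (limma adjusted p = 0.0577), Hagh, the glyoxalase that releases glutathione from lactoylglutathione, at -0.51 (adjusted p = 0.132), and Esd, which hydrolyses formylglutathione, at -0.35 (adjusted p = 0.162). With citrate their median was -0.13, and 2 were lower and 1 higher at that threshold, where 3.82% of all genes were lower. The 2 were Ggt6, a gamma-glutamyltransferase family member, at -0.48, and Abcc3, an export pump, at -0.60, and Ggct, the gamma-glutamylcyclotransferase, was at +0.16.

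NRF2 targets other than transferases (18 of 24 tested) had a PVP median of -0.31 and a citrate median of -0.13, with 0 past the threshold over all genes for either. At an unadjusted p under 0.05 there were 7 lower and 1 higher with PVP (12.2% of all genes were lower) and 5 lower and 0 higher with citrate (3.82% of all genes). The 1 higher was Hmox1, a heme oxygenase, at +0.68 with PVP (limma adjusted p = 0.205) and +0.18 with citrate. Nqo1, a quinone reductase, had -0.61 with PVP (limma adjusted p = 0.152) and -0.52 with citrate (adjusted p = 0.59). Ftl1, the ferritin light chain, and Cbr1, a carbonyl reductase, had -0.44 and -0.49 with PVP (limma adjusted p = 0.119 and 0.144).

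Of the regulators of transferase genes (17 of 19 tested) none passed. Nfe2l2, which encodes NRF2, had -0.62 with PVP (limma adjusted p = 0.158) and -0.73 with citrate (adjusted p = 0.399). Keap1, which holds NRF2 in the cytosol, had -0.21 with PVP (adjusted p = 0.213), and Cebpb, a factor of the inflammatory response, +0.46 with PVP (adjusted p = 0.162) and +0.54 with citrate (adjusted p = 0.409). The median over the regulators was -0.13 with PVP and -0.05 with citrate. Both coatings share the control mice, so the likeness of their values is not independent.

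The genes of tyrosine breakdown around Gstz1 (6 of 7 tested) had a PVP median of -0.23, with 0 past the threshold and 2 lower at an unadjusted p under 0.05, against 12.2% of all genes. These were Got2, the mitochondrial aspartate aminotransferase, at -0.89 (limma adjusted p = 0.14), and Fah, the enzyme after Gstz1 in the pathway, at -0.33 (adjusted p = 0.144). With citrate the median was 0.01 and 0 passed either threshold.

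How the transferases followed one another was described with Pearson correlations over the 12 arrays after the mean of each sex was subtracted, over arrays that share treatment and quality differences. Gsta2 and Gsta4, both on chromosome 9, had r = 0.934, and Gstt1 and Gstz1, which lie on different chromosomes, 0.949. Gstk1 had 0.818 with Gstz1 and 0.814 with Gsta4, and 0.0033 with Gstp1. The genes of most similar pattern outside the list were, for Gstk1, Echdc3 (0.969), D5Ertd579e (0.966) and Dhx37 (0.955). For Gsta2 they were Ddt (0.952), Tcea3 (0.944) and Ethe1 (0.925), and for Gsta4 the same 3 genes, Tcea3 (0.950), Ethe1 (0.950) and Ddt (0.949). Ddt encodes D-dopachrome tautomerase and Ethe1 a mitochondrial persulfide dioxygenase. Gstt1 was followed most closely by Cs, the citrate synthase (0.988), Psmb7 (0.978) and Dnajc4 (0.975). Gstz1 was followed by Wdr18 (0.983), Uqcrc2 (0.982) and Orc3 (0.979), and Gstt2 by Wrnip1 (0.962), Bcl9l (0.938) and Fam160b1 (0.938).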

How the data were processed

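Liver RNA of 12 mice was measured on 1 Affymetrix whole-transcript array each. The deposited table held log2 signals of 72688 probe sets, from 1.73 to a ceiling of 19.93. RMA and Transcriptome Analysis Console 4.0.1.36 appear in the submitters' processing notes, with no role stated. The genome build was not given in the sources used here, and scanner intensities were not used.

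The platform's table named 1 gene symbol for 30604 probe sets, several for 2146 and none for 39938, and 1135 symbols were updated with RefSeq's GRCm38.p6 gene table. The brightest probe set by mean stood for a gene. Of 30063 genes, the 19985 with a mean over the 40th percentile of the table (log2 3.93) were tested. limma 3.58.1 in R 4.3.3 (lmFit, then eBayes with a trend along the mean) was fitted to all 12 arrays with terms for group and sex, with two-sided tests and Benjamini-Hochberg adjustment across the genes tested. A model of 6 means, 1 for each group and sex, gave the differences between the sexes. The code was tested on simulated data. The number of arrays limits the precision. The limma p-values set each difference against the spread between mice, with 1 array each, as moderated over the genes tested.

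The rule for named genes took all listed transferases and, of each related list, the members that passed or else the 3 of smallest p. Hmox1 was named besides, as the 1 NRF2 target higher with PVP. For each transferase whose groups did not overlap in a comparison with control, the 3 genes of highest correlation were also taken, predicted names left out. The transferases and lists were chosen with earlier results of these data known. Alternatives were each array left out, 2 groups alone, no sex term, a replicate block, other scalings, filters and weights.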

Additional observations from a re-analysis of the deposited data

Results flagged for a closer look

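Within each group of 4, the highest and lowest array of every measured transferase was compared with its nearest neighbour by Dixon's test, in 27 groups, and chance flags about 1 in 20. Gsta2 in PVP replicate 2, a female, stood far below the other PVP-treated livers, with a log2 signal of 7.46 against 10.30 to 10.63. The same array was lowest for Gsta4 and Gstt2, and it had the highest acute phase median deviation, 1.52. Gstt1 in control replicate 4, also a female, stood far above the other controls, with a log2 signal of 13.12 against 11.73 to 11.82. Both citrate-treated females, at 12.74 and 13.17, had Gstt1 values near that of this control.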

How the results depend on the processing

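The fall of Gstk1 with PVP kept its direction in all 25 alternatives (log2 differences of -1.07 to -0.88) and its call in 5 of them. The count of transferases past the threshold for PVP, 1, was 0 to 1 over the fits without 1 array. It was 0 with 6 means (group and sex), with the 2 groups alone, without PVP replicates 1 and 4 (lowest exon over intron area), with that area as a covariate, with no term for sex, with arrays centred on their medians, with quantile normalization, with no filter and with the mean over all probe sets. It was also 0 with the replicate block, where Gstk1 had an adjusted p of 0.165. Same-numbered arrays of different groups had correlations of -0.44 to 0.234 in their deviations. These gave no sign that the numbers pair the mice, but with 4 arrays a group they cannot exclude it. The female and male difference of Gstp1 passed in all 23 alternatives (-5.94 to -5.49).

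At an unadjusted p under 0.05, the PVP count of 6 ranged from 4 to 7 without 1 array and was 3 without PVP replicates 1 and 4. The citrate count of 2 ranged from 0 to 4 and was 4 with the 2 groups alone, and the PVP minus citrate count of 4 ranged from 1 to 5 and was 2 with no term for sex and with the replicate block. The female minus male count of 4 ranged from 1 to 4 and was 2 with the replicate block and with median-centred arrays and 6 with array weights. With array weights, 2 transferases passed for sex, Gstt1 (adjusted p = 0.0475) beside Gstp1.

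Signs turned only for values that had not passed. Without 1 array, citrate minus control ran from -0.58 to 0.038 for Gstp1, from -0.48 to 0.10 for Gstt1 and from -0.15 to 0.0080 for Gstz1, and PVP minus control from -0.42 to 0.20 for Gstp1. PVP minus citrate ran from -0.25 to 0.095 for Gstt2 and from -0.20 to 0.046 for Gsto1, and female minus male from -0.25 to 0.0036 for Gstt2. With array weights Gstp1 was 0.12 for PVP minus control. Without PVP replicates 1 and 4 PVP minus citrate was 0.031 for Gsta3, 0.12 for Gstt2 and 0.066 for Gsto1, with the area as a covariate 0.15 for Gstt2 and 0.021 for Gsto1, and with quantile normalization 0.014 for Gstt2. With the replicate block, female minus male was 0.039 for Gsta2 and 0.25 for Gstt2. With median-centred arrays the PVP minus control median of all genes was -0.107, against -0.0023 as deposited. The cause was not tested for any of these changes. Gstt2 and Gsto1 lay near the intron controls on many arrays, which limits their values.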

Other observations

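Several genes of the related lists differed between the sexes. Values of females and males overlapped for Nqo1, Ggct and the other transferases named below, and those of Orm2 met at 13.65. Aox1, an aldehyde oxidase, had log2 signals of 8.84 ± 0.55 in females and 10.83 ± 0.71 in males, and Ugdh, which makes UDP-glucuronate, 10.23 ± 0.34 in females and 11.55 ± 0.26 in males (mean ± SD, n = 6 each). Both were lower in females (log2 differences of -1.98 and -1.32, limma adjusted p = 0.00371 and 0.00405). Nqo1 was higher in females, at 7.25 ± 0.35, than in males, at 6.18 ± 0.43 (difference 1.07, limma adjusted p = 0.00501). Gsr, the glutathione reductase, was lower in females (-0.61, limma adjusted p = 0.0221), and Ggct was higher (0.24, adjusted p = 0.0366).

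Among the other transferases, Gstt3 (1.68) and Mgst3 (0.60) were higher in females and Gstm3 (-1.15), Gstm6 (-0.58) and Gstm4 (-0.53) lower, with limma adjusted p-values of 0.0205 to 0.0444. The acute phase gene Orm2 was higher in females as well (3.68, limma adjusted p = 0.0274), over a fit that holds all 3 groups. In PVP-treated livers Saa2 and Saa1, the serum amyloid genes, averaged 15.93 ± 3.95 and 16.31 ± 3.16, against 9.13 ± 1.21 and 10.49 ± 1.06 in control livers (mean ± SD, n = 4 each), which did not pass (limma adjusted p = 0.0757 and 0.0877).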
